A study of Mus musculus with 4 samples.

Results

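The NRF2 axis was described here by 10 genes of the 20141 named on the arrays: the transcription factor Nfe2l2, its inhibitor Keap1, and the antioxidant genes Nqo1, Hmox1, Srxn1, Txnrd1, Txn1, G6pdx, Gsta4 and Gstm1. The genes were chosen by name, and 12 of the 55681 probes on the array belonged to them. mRNA was measured on 4 single-color microarrays of brown adipose tissue (BAT), each from a different male mouse at 8 weeks of age, with 2 vehicle-treated and 2 AP-treated mice. All 4 mice carried maP2-Fv2E-PERK on a C57BL/6N background, so the transgene itself was present in the controls too. In these Tg mice the mouse aP2 (Fabp4) promoter drives a fusion of the PERK kinase domain with a dimerization domain, and the injected dimerizer AP20187 (AP) switches the kinase on. Since Fabp4 is expressed by macrophages too, the transgene need not be limited to fat cells. Mice received AP or its solvent by the intraperitoneal route, and BAT was taken 12 h later. The sample labels give the AP dose as 1 ng/g, whereas the study describes a higher one, and which of them applied to these mice could not be settled here. Wild-type mice given AP were not analysed here. The arrays asked which mRNAs differ in BAT once the integrated stress response (ISR) is switched on by the kinase alone.

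NRF2, the protein of Nfe2l2, is held by KEAP1 in unstressed cells and handed to the CUL3 ubiquitin ligase for degradation. Oxidants and electrophiles that modify cysteines of KEAP1 stop this, and NRF2 then pairs with small MAF proteins on antioxidant response elements and turns on genes for quinone reduction, heme breakdown, the thioredoxin system, NADPH supply and glutathione conjugation. PERK is known to phosphorylate NRF2 as well as eIF2α, and ATF4, which is translated when eIF2α is phosphorylated, shares several targets with NRF2, Hmox1 among them. In brown adipocytes, heat production runs through mitochondria with a high flux of electrons, which makes peroxide disposal a standing need of the tissue.

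The arrays carried the treatment. Trib3, an ISR target, had a normalized signal of 2.78 and 2.33 in vehicle mice 1 and 2 and of 6.26 and 8.01 in AP mice 1 and 2. Ddit3, which encodes the ISR transcription factor CHOP, had 2.18 and 1.86 against 3.03 and 4.22. Normalized signal here is the log2 processed intensity of a probe minus the 75th percentile of its own array. Both AP mice lay above both vehicle mice for these genes, and AP mouse 2 lay above AP mouse 1. Neither passed the adjusted threshold (limma, adjusted p = 0.80 for each), and no probe on the array did. All 8 brown adipocyte markers, Ucp1 and Cidea among them, were well above background on all 4 arrays. On the vehicle arrays 46.8% and 49.0% of spots were detected well over background, and on each AP array 46.4%.

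The vehicle mice differed from each other in the signal of cell type markers, and the makeup of the tissue itself was not measured. The summed linear signal of 6 skeletal muscle markers, in units of the 75th percentile, was 25.3 and 450.1 in the vehicle mice and 320.8 and 165.5 in the AP mice, with Myh4 the brightest probe (normalized signal 3.84, 7.83, 7.58 and 6.63 in the same order). The summed signal of the 4 leukocyte markers compared was 27.6, 92.2, 33.3 and 31.1, with H2-Ab1 the brightest probe, while Cd79a was not well above background on any array. For the 5 macrophage markers compared it was 30.7, 38.2, 22.1 and 23.9, with Itgam the brightest probe, and Cd163 was not well above background on any array. Vehicle mouse 1 thus had the least muscle signal, and vehicle mouse 2 had the most muscle, leukocyte and macrophage signal. Elovl3, a fatty acid elongase of brown fat, stood at 6.08 in vehicle mouse 1 and -1.07 in vehicle mouse 2, with 3.52 and 5.76 in the AP mice. Each member is therefore given below also without vehicle mouse 1 and without vehicle mouse 2, and the part of these cell types in the members' values was not tested.

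Promoters of 8 of the 10 genes were held in the RefSeq table used (GRCm38.p6), from 250 bases before to 50 bases after each start. The letters TGACNNNGC, the core of the antioxidant response element, were searched on both strands. They occurred in 4 of the 11 promoters listed for the 8 genes, each of a different gene, and in 12.4% of the 32851 promoters of all genes. TGATGNAA, the element bound by C/EBP-ATF dimers including ATF4, occurred in 0 of the 11 and in 3.97% of all promoters. In Srxn1 the core lay after the start, on the strand opposite to the gene. A variant with AP-1 letters, TGANTCAGC, was read in the Srxn1 promoter and then searched for. It occurred in 1 of the 11, that of Srxn1, and in 1.19% of all promoters, and its letters can overlap the core in part. The stretches of 60 bases around 4 matches before the start are shown on the strand of the gene, with the matched letters in capitals. Those of Nfe2l2, Txnrd1 and G6pdx hold the core, the known docking letters of the factor under study. That of Srxn1 holds the variant. A match describes the letters only. For Nfe2l2 (chr2:75704854-75704913, minus strand) the match began 240 bases before the start. For Txnrd1 (chr10:82859088-82859147, plus strand) it began 92 bases before 1 of 3 listed starts and read on the opposite strand. For G6pdx (chrX:74428904-74428963, minus strand) it began 57 bases before the start, also on the opposite strand, and for Srxn1 (chr2:152105453-152105512, plus strand) the variant began 45 bases before the start.
Nfe2l2: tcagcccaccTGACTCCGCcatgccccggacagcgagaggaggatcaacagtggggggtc
Txnrd1: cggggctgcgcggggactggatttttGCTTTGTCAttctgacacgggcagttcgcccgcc
G6pdx: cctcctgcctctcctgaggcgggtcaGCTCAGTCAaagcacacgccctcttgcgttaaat
Srxn1: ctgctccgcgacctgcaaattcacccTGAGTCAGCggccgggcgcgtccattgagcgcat

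None of the 10 genes rose or fell with AP by the adjusted test. All 12 probes were well above background on all 4 arrays, so none was lost to the filter on dim probes or passed it through 1 group only. By the brightest probe of each gene, 4 were higher and 6 were lower in the AP mice, with a median log2 fold change of -0.07 beside -0.01 over the 24970 probes compared. With the log2 values deposited by the authors, whose median over all probes was -0.17, 2 were above 0 and 8 below, Srxn1 and Txnrd1 being the ones that turned. With scaling to the median of each array 5 were above 0 and the median was 0.02. At an adjusted p under 0.05 (limma) 0 of 10 passed, as did 0% of all probes, and at an unadjusted p under 0.05 again 0 of 10 passed, beside 6.07% of all probes. Gstm1 was at such a p with normexp background correction and Nqo1 without vehicle mouse 1. So was G6pdx with the replicate numbers paired crosswise, a setting chosen after seeing the data. The methods' t-test also gave 0 of 10 at an unadjusted p under 0.05, with 5.92% of all probes. The groups did not overlap for 1 gene, Gstm1, which is 10% of the members, whereas 38.3% of all probes did not overlap. Of the 10 group means, 0 differed by 2-fold or more, beside 4.32% of all probes. The 95% interval of the log2 fold change (limma) included 0 for all 10. It lay within a 2-fold change in both directions for 3 of them, Keap1, Txn1 and Gstm1, and reached past a 2-fold change for the other 7, so the precision of 2 mice per group did not allow a statement on changes of that size there. An exact two-sided permutation test of 2 against 2 mice cannot go below p = 0.333. Each array was from 1 mouse. The limma p-values and intervals rest on the spread between these mice and on a prior spread taken from all probes compared. The spread of a gene had 2 degrees of freedom and the prior 2.56. Intervals from the spread of each gene alone were not computed.

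**Figure D1:**
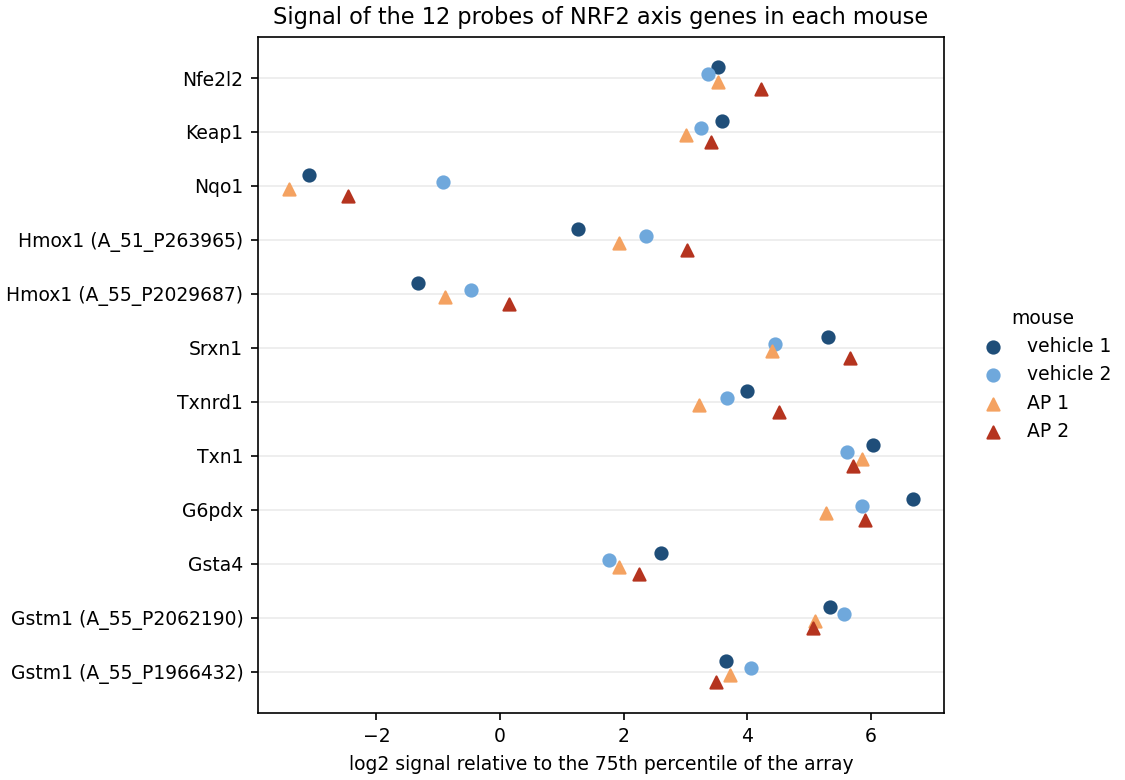
Normalized log2 signal (log2 processed intensity minus the 75th percentile of the array) of each of the 12 probes, 1 point per mouse, with circles for the 2 vehicle mice and triangles for the 2 AP mice. Levels of different probes are not comparable. For the brighter Gstm1 probe both AP mice lay below both vehicle mice, and for the other 11 probes the groups overlapped.

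**Figure D2:**
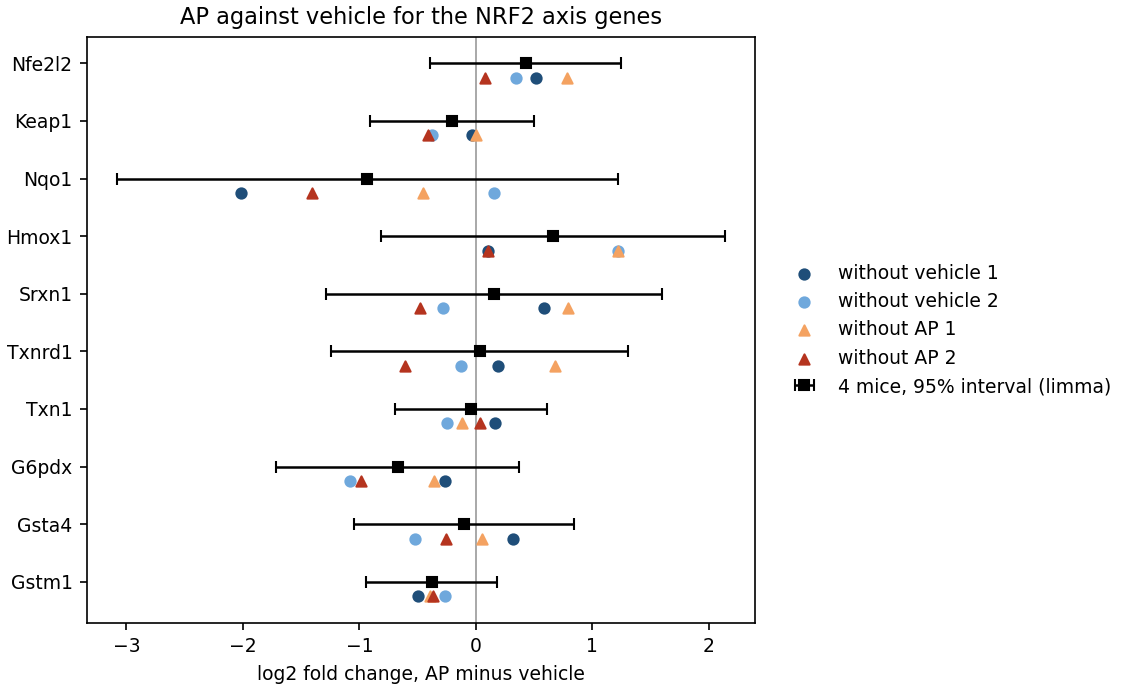
Log2 fold change of AP over vehicle for the brightest probe of the 10 genes (squares), with bars for the 95% interval from limma (n = 2 mice per group) and, under each, the value with 1 mouse left out (circles for vehicle mice, triangles for AP mice). Every interval includes 0, and that of Nqo1, from -3.08 to 1.22, is the widest.

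Of the regulators, Nfe2l2 itself was close in 3 mice and higher in AP mouse 2. Its normalized signal (probe A_51_P411271) was 3.53 and 3.36 in the vehicle mice and 3.52 and 4.22 in the AP mice. AP mouse 1 fell between the vehicle mice, so the groups overlapped. The log2 fold change was 0.43 (SE 0.31, 95% interval -0.39 to 1.25, limma adjusted p = 0.82), a 1.35-fold higher mean, and it was 0.08 without AP mouse 2. It was 0.52 without vehicle mouse 1, 0.34 without vehicle mouse 2 and 0.22 with normexp background correction. In BAT, which holds several cell types, more RNA per cell and more cells of a type that expresses the gene cannot be told apart.

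Keap1, the sensor that holds NRF2 for degradation, had a normalized signal of 3.59 and 3.25 in the vehicle mice and of 3.005 and 3.42 in the AP mice (A_51_P438666). The AP mice lay on either side of vehicle mouse 2. The difference in log2 signal was -0.21 (SE 0.27, 95% interval -0.91 to 0.50, limma adjusted p = 0.88). It was -0.03 without vehicle mouse 1 and -0.38 without vehicle mouse 2.

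Hmox1 encodes heme oxygenase 1, which opens heme to biliverdin, iron and carbon monoxide. Its brighter probe (A_51_P263965) read 1.25 and 2.37 in the vehicle mice and 1.92 and 3.03 in the AP mice, and the dimmer probe (A_55_P2029687) read -1.32, -0.47, -0.90 and 0.15. Both probes put the mice in 1 order, with AP mouse 2 highest, then vehicle mouse 2, AP mouse 1 and vehicle mouse 1, an order found in 1.98% of all probes compared. The log2 fold change was 0.66 (SE 0.56, 95% interval -0.81 to 2.14, limma adjusted p = 0.84) on the brighter probe and 0.52 (SE 0.49, adjusted p = 0.84) on the dimmer one. AP mouse 2 exceeded AP mouse 1 by 2.16-fold on the brighter probe and 2.07-fold on the dimmer. On the brighter probe the log2 fold change was 1.22 without vehicle mouse 2 and 0.11 without vehicle mouse 1, with no call in either case. Macrophages that clear red cells are known for high Hmox1. In the order vehicle 1, vehicle 2, AP 1 and AP 2, the normalized signal was -0.68, 0.64, 0.07 and -0.50 for the macrophage marker Adgre1, 3.27, 4.11, 3.51 and 3.40 for Csf1r and -1.06, 1.42, -0.24 and -0.52 for Lyz2, while Itgam, the brightest probe of the list, read 4.21, 3.82, 2.85 and 3.42. The summed erythroid markers, with Hba-a1 the brightest probe, were 774.8, 466.4, 376.0 and 516.6. The part of these cells in the Hmox1 values was not tested.

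Nqo1 encodes a quinone reductase and is widely used as a readout of NRF2. It had the widest spread of the members: the normalized signal (A_51_P424338) was -3.10 and -0.92 in the vehicle mice and -3.41 and -2.46 in the AP mice. Vehicle mouse 2 alone was high, 4.52-fold above vehicle mouse 1, and the other 3 mice lay close to the lower end of the array, with processed intensities of 13.9, 12.0 and 21.5 against 83.8 in vehicle mouse 2. On the log2 scale AP minus vehicle was -0.93 (SE 0.81, 95% interval -3.08 to 1.22, limma adjusted p = 0.84), and it was 0.16 without vehicle mouse 2 and -2.02 without vehicle mouse 1. With normexp background correction it was -0.37. The median leukocyte marker of vehicle mouse 2 was 1.26 above its mean over the mice on the log2 scale, and the median muscle marker was 1.67 above. Their part in the Nqo1 values was not tested.

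In the thioredoxin system, Srxn1 and Txnrd1 differed more between the AP mice than between the groups. Srxn1, sulfiredoxin, repairs overoxidized peroxiredoxins. Its normalized signal (A_55_P2033120) was 5.31 and 4.44 in the vehicle mice and 4.40 and 5.67 in the AP mice. The AP mice held both the lowest and the highest value, 2.40-fold apart, and the vehicle mice lay between them. AP minus vehicle came to 0.16 on the log2 scale (SE 0.55, 95% interval -1.29 to 1.60, limma adjusted p = 0.96). It turned to -0.28 without vehicle mouse 2 and to -0.48 without AP mouse 2, and was 0.59 without vehicle mouse 1.

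Txnrd1, cytosolic thioredoxin reductase, passes electrons from NADPH to thioredoxin. Its normalized signal (A_51_P320614) was 3.99 and 3.67 in the vehicle mice and 3.22 and 4.51 in the AP mice. The order of the mice was that of Srxn1, an order shared by 1318 probes or 5.28% of those compared, and the AP mice were 2.44-fold apart. Between the groups the log2 fold change was 0.03 (SE 0.48, 95% interval -1.24 to 1.31, limma adjusted p = 0.99), with -0.12 without vehicle mouse 2 and 0.19 without vehicle mouse 1. Without AP mouse 2 it was -0.61.

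Txn1, thioredoxin itself, was the steadiest of the 3. It read 6.03 and 5.61 in the vehicle mice and 5.86 and 5.70 in the AP mice (A_51_P424499), with both AP mice inside the range of the vehicle mice. Its log2 fold change was -0.04 (SE 0.25, 95% interval -0.69 to 0.61, limma adjusted p = 0.98). It was 0.17 without vehicle mouse 1 and -0.25 without vehicle mouse 2.

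G6pdx, glucose-6-phosphate dehydrogenase, makes NADPH at the entry of the pentose phosphate pathway. Its normalized signal (A_51_P187082) was 6.67 and 5.86 in the vehicle mice and 5.28 and 5.91 in the AP mice. Vehicle mouse 1 was the highest and AP mouse 1 the lowest, while vehicle mouse 2 and AP mouse 2 were 0.05 apart. The log2 fold change was -0.67 (SE 0.39, 95% interval -1.72 to 0.37, limma adjusted p = 0.80). It stayed below 0 whichever mouse was left out, from -1.08 without vehicle mouse 2 to -0.26 without vehicle mouse 1.

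Glutathione transferases couple glutathione to electrophiles, and Gsta4 acts on 4-hydroxynonenal, an aldehyde of lipid peroxidation. Its probe (A_51_P112223) was printed 10 times on each array, and the coefficient of variation between spots was 3.66%, 4.71%, 3.36% and 5.98% on the 4 arrays, which covers error within an array only. The normalized signal was 2.61 and 1.76 in the vehicle mice and 1.92 and 2.24 in the AP mice. Both AP mice lay between the vehicle mice. A log2 fold change of -0.10 was obtained (SE 0.36, 95% interval -1.05 to 0.85, limma adjusted p = 0.96), with 0.32 without vehicle mouse 1 and -0.52 without vehicle mouse 2.

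Gstm1, a transferase of the mu class, was the 1 member whose groups stood apart. Its brighter probe (A_55_P2062190) read 5.34 and 5.57 in the vehicle mice and 5.09 and 5.06 in the AP mice. Both AP mice were below both vehicle mice, as were 20.4% of all probes compared. For this probe the log2 fold change was -0.38 (SE 0.21, 95% interval -0.94 to 0.18, limma adjusted p = 0.80), with -0.49 without vehicle mouse 1 and -0.27 without vehicle mouse 2. The dimmer probe (A_55_P1966432) read 3.66, 4.06, 3.72 and 3.50, where the groups overlapped, and its log2 fold change was -0.25 (SE 0.25, adjusted p = 0.85). The mu class holds genes of near-identical sequence, and whether the probes also bound their mRNAs was not tested. Among the white adipose markers, Lep read 0.04 and 1.45 in the vehicle mice and -0.63 and -0.63 in the AP mice. Its log2 fold change was -1.38, and those of Retn, Slc7a10 and Nrip1 were -0.38, -0.22 and 0.38. The part of white adipose tissue in the Gstm1 values was not tested.

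The spread between mice of a group was larger than the difference between the groups in 9 of the 10 genes, as it was in 74.6% of all probes. AP mouse 2 was above AP mouse 1 in 8 of the 10 genes, beside 51.3% of all probes, and at least 2-fold above in 3 genes, Hmox1, Srxn1 and Txnrd1, beside 5.35% of all probes. In either direction 8.41% of all probes were at least 2-fold apart between the AP mice. Vehicle mouse 1 was above vehicle mouse 2 in 7 of the 10, beside 60.6% of all probes, and the vehicle mice were at least 2-fold apart for Nqo1 and Hmox1, beside 9.02% of all probes. AP mouse 2 also had the higher Trib3 and Ddit3 of the AP mice. These are the values of single mice and carry no test.

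**Figure D3:**
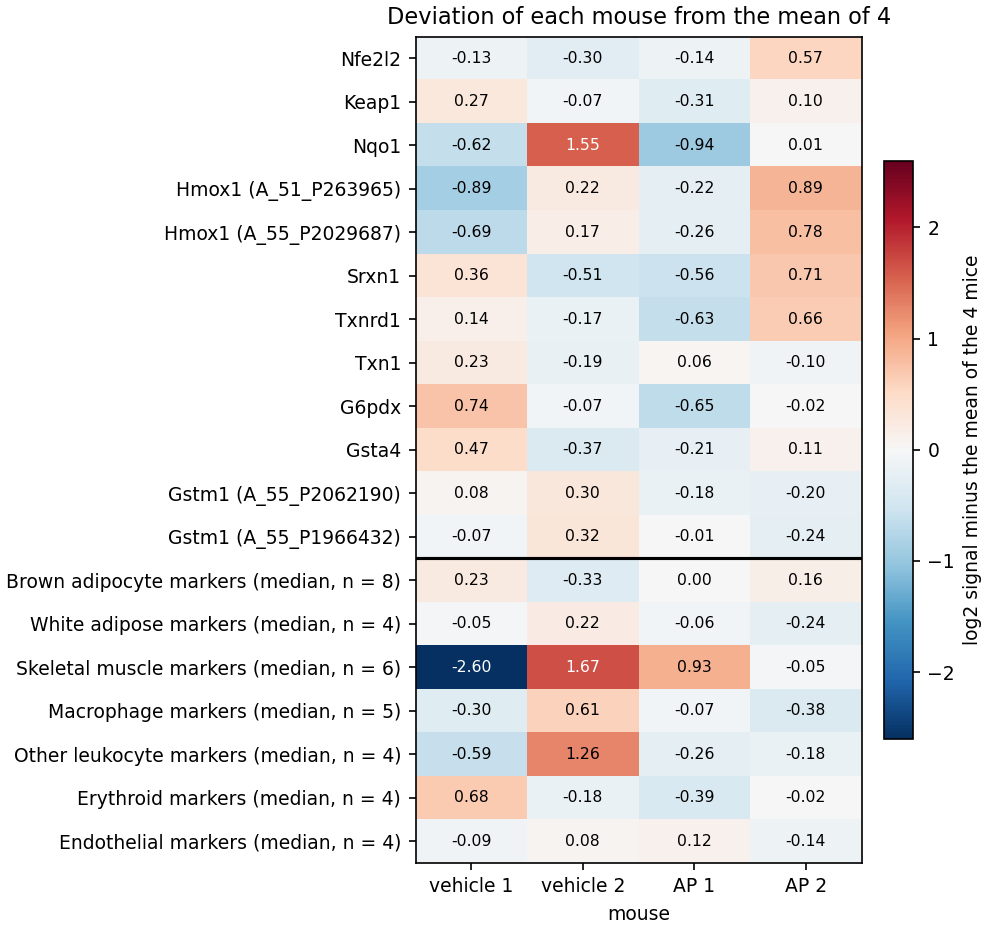
Difference of each mouse from the mean of the 4 mice, in log2 units, for the 12 probes and for the median of each list of cell type markers. In vehicle mouse 2 Nqo1 was 1.55 above the mean, with muscle markers 1.67 and other leukocyte markers 1.26 above, and in AP mouse 2 Nfe2l2, Hmox1, Srxn1 and Txnrd1 were 0.57 to 0.89 above.

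The wider set of NRF2 targets was read from a list of 39 genes, of which 33 were compared. Slc7a11, Gpx2, Gsta1, Gsta2, Ugt1a6a and Abcc2 did not reach that level in both mice of either group and were left out. None of the 33 passed the adjusted threshold (limma, adjusted p of at least 0.80). The log2 fold change was above 0 for 11 genes and below 0 for 22, with a median of -0.19, whereas 48.6% of all probes were above 0. Without vehicle mouse 1 the count above 0 was 17 of 33 and the median 0.0019. The groups did not overlap for 13 genes, 3 higher and 10 lower with AP, which is 39.4% of the list. Of all probes, 18% lay higher and 20.4% lower without overlap. At an unadjusted p under 0.05 there were 3 genes, 1 higher and 2 lower, where 3.3% of all probes were higher and 2.77% lower at that level. These were Abcc4, Ptgr1 and Tkt, none of which had a p under 0.05 by the methods' t-test, where Aldh3a1 and Gstp1 did. Without vehicle mouse 1 none of the 3 was under 0.05, and Abcc3, Aox1 and Gstm2 were in their place. Abcc4 was also not under it with the authors' deposited log2 values, without a filter, or without vehicle mouse 2 or AP mouse 2, Tkt with scaling to the median or without AP mouse 1, and Ptgr1 without vehicle mouse 2 or AP mouse 1.

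With this processing the gene with the largest positive value was Abcc4, an exporter of glutathione conjugates and cyclic nucleotides. Its normalized signal was 0.09 and 0.54 in the vehicle mice and 1.01 and 2.34 in the AP mice. The log2 fold change was 1.36 (SE 0.50, limma adjusted p = 0.80), with 0.69 without AP mouse 2 and 2.02 without AP mouse 1. Aox1 had the larger value without AP mouse 2, at 0.76. The largest negative value with this processing was that of Ptgr1, which reduces leukotriene B4 and unsaturated aldehydes. It read -0.51 and -0.40 against -2.04 and -1.26, with a log2 fold change of -1.20 (SE 0.33, limma adjusted p = 0.80), and -0.53 with normexp background correction. Pgd was the lower one with normexp, at -0.92, without vehicle mouse 2, at -1.67 against -1.15, and without AP mouse 2, at -1.79 against -1.59, and Abcc3 was the lower one without vehicle mouse 1. The groups stood apart for Abcc4 and Ptgr1. Tkt, transketolase of the pentose phosphate pathway, read 10.31 and 9.86 against 9.09 and 9.48 (log2 fold change -0.81, SE 0.28), and its unadjusted limma p of 0.038 became 0.074 with the replicate number as a block. Abcc3, another exporter of conjugates, read -2.31 and -1.12 against -2.49 and -2.52 (-0.79, SE 0.44), and was -0.19 without vehicle mouse 2, -1.39 without vehicle mouse 1 and -0.26 with normexp.

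Read by role, in groups drawn after the values had been seen and given without a test, the 4 genes of glutathione synthesis and recycling that were compared all had a higher mean in the AP mice, with groups that overlapped for 3 of them. Gclc and Gclm, the subunits of the first and limiting enzyme, had log2 fold changes of 0.42 and 0.45, glutathione synthetase Gss 0.69 and glutathione reductase Gsr 0.14. The exception was Gss, at 1.08 and 1.76 in the vehicle mice and 2.09 and 2.13 in the AP mice. The values rested on single mice in part: Gclc was 0.15 without AP mouse 2, Gclm 0.10 without vehicle mouse 2, Gss 0.35 without vehicle mouse 1 and Gsr 0.0041 without AP mouse 1. Gsr was below 0 with normexp background correction, at -0.08, and with the authors' deposited log2 values, at -0.02. The 3 exporters compared were split: Abcc1, at 1.63 and 1.25 against 1.88 and 2.23, and Abcc4 were higher in both AP mice than in both vehicle mice, and Abcc3 was lower in both.

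The 5 genes grouped as NADPH supply and the pentose phosphate pathway had values below 0, as G6pdx did. Tkt and Taldo1 belong to that pathway and do not make NADPH themselves. They were Pgd with a log2 fold change of -0.84, Me1 with -0.82, Tkt with -0.81, Idh1 with -0.39 and Taldo1 with -0.28. Vehicle mouse 1 was the highest mouse for all of them, and without it 3 of 5 were below 0. Pgd was then 0.0019, Taldo1 0.22 and Me1 -0.09, while Tkt was -0.58 and Idh1 -0.26. Without AP mouse 1 Pgd was 0.12 and Me1 -0.34. For Pgd, the next dehydrogenase after G6pdx, the mice of a group lay far apart, at 7.29 and 5.61 in the vehicle mice and 4.66 and 6.57 in the AP mice. The 6 transferases compared for conjugation were below 0 as well, as both Gstm1 probes were, with a median of -0.42. Among them Gstp1 read 4.51 and 4.44 in the vehicle mice and 4.13 and 4.03 in the AP mice. Gstm2, Gstm3 and Gstm4 among the 6 are of the mu class, as Gstm1 is, and whether probes of that class bind each other's mRNAs was not tested. Without vehicle mouse 1, 5 of 6 were below 0, and without AP mouse 1 again 5 of 6. The 4 genes of heme and iron handling had smaller values, from -0.30 for Blvra to -0.13 for Ftl1, a ferritin chain, and the groups overlapped for all 4. Without AP mouse 1, 2 of these 4 were above 0, with Blvra at 0.59. The heme oxygenase Hmox1, among the members, had a value above 0. The 7 carbonyl, quinone and epoxide enzymes were split into 3 above and 4 below 0, as were the 2 peroxidases and the 2 remaining genes into 1 and 1. These splits were not stable: the first was 1 and 6 without AP mouse 2, the peroxidases were 0 and 2 without vehicle mouse 2, and the remaining genes were 2 and 0 without vehicle mouse 1 and 0 and 2 without vehicle mouse 2.

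**Figure D4:**
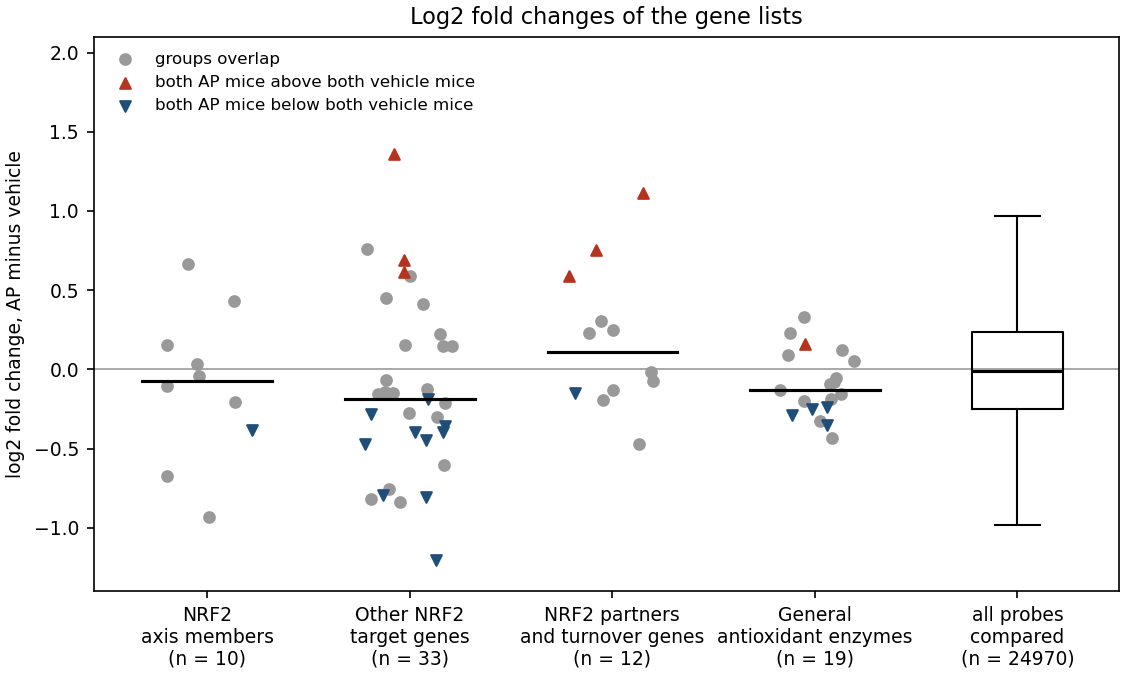
Log2 fold change of AP over vehicle for the 10 members and the genes of 3 lists, 1 point per gene by its brightest probe, with a bar at the median of each list and a box plot of all 24970 probes compared (box at the quartiles, whiskers by the usual Tukey rule, outlying probes not drawn). Triangles mark genes whose groups did not overlap, and the medians lie at -0.07, -0.19, 0.11 and -0.13 from left to right.

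Of 12 partners and turnover genes of NRF2, all were compared, with 6 above and 6 below 0 and a median log2 fold change of 0.11, and with 8 above 0 when arrays were scaled to their median. None passed the adjusted threshold, and 4 did not overlap (33.3%, beside 38.3% of all probes), 3 higher and 1 lower with AP. Sqstm1, the autophagy receptor p62 that can bind KEAP1, read 3.16 and 2.41 in the vehicle mice and 3.65 and 4.16 in the AP mice. Both AP mice were above both vehicle mice, and the log2 fold change was 1.11 (SE 0.36, limma unadjusted p = 0.031, adjusted p = 0.80), with 0.74 without vehicle mouse 2. It was the only 1 of the 12 at an unadjusted p under 0.05 (limma), beside 6.07% of all probes. With the replicate number as a block the unadjusted limma p of Sqstm1 was 0.055. By the methods' t-test 0 of the 12 were under 0.05, and without vehicle mouse 2 or AP mouse 2 the unadjusted limma p of Sqstm1 was 0.109 or 0.126. Mafg, a small MAF partner, read 3.38 and 2.83 against 3.42 and 4.29 (log2 fold change 0.75, SE 0.39, and 0.32 without AP mouse 2), and Nfe2l1, the NRF1 factor that binds similar elements, read 0.93 and 0.41 against 1.18 and 1.33 (0.59, SE 0.27), and was 0.33 without vehicle mouse 2. Rbx1, a subunit of the CUL3 ligase, was the 1 lower gene, with 5.78 and 5.76 against 5.50 and 5.74 (-0.15, SE 0.21, and -0.03 without AP mouse 1), and Cul3 itself had a log2 fold change of -0.02. The list's median was 0.45 without vehicle mouse 1 and -0.07 without vehicle mouse 2.

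General antioxidant enzymes, which are less tied to NRF2, gave 6 values above and 13 below 0 among 19 genes, with a median of -0.13. The count above 0 was 3 with the authors' deposited log2 values and 8 with scaling to the median. None passed the adjusted threshold or an unadjusted p under 0.05 (limma), although Prdx2 was under it by the methods' t-test (p of 0.016) and with normexp. In this list 5 did not overlap, 1 higher and 4 lower with AP, a share of 26.3% that lay below the 38.3% of all probes. The lower ones were Prdx2, a cytosolic peroxiredoxin, at 6.40 and 6.49 in the vehicle mice and 6.08 and 6.10 in the AP mice, extracellular superoxide dismutase Sod3 at 6.37 and 6.35 against 6.14 and 5.998, the lipid peroxide reductase Gpx4 at 9.24 and 9.18 against 9.05 and 8.88, and Prdx5 at 7.00 and 7.16 against 6.80 and 6.88. Their log2 fold changes lay between -0.35 for Prdx2 and -0.24 for Prdx5. Sod1, Cat and Gpx1 had log2 fold changes of 0.05, -0.06 and -0.09. None of the 19 was at least 2-fold higher in AP mouse 2 than in AP mouse 1, beside 5.35% of all probes, a share too small to set 19 genes apart.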

How the data were processed

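BAT RNA was hybridized to SurePrint G3 Mouse arrays. Scans were read by the authors in Feature Extraction 10.7.1.1, and the processed intensity of each spot was deposited, background-subtracted and detrended within the array, with no scaling between arrays, together with spot flags. The authors also deposited a log2 table of the same arrays, which gave differences between arrays that correlated with those of the intensities (Pearson's r of at least 0.9998 over 24865 probes). Its column medians were -0.28, -0.16, -0.44 and -0.29 for the vehicle and AP arrays, the centring of its probes and its scaling are not given in the sources used here, and it served as an alternative.

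Each array was scaled by dividing processed intensities by their 75th percentile (118.9, 158.7, 127.6 and 118.5) before taking log2. Control and outlier spots were left out, and spots of a probe were averaged. The 24970 of 55681 probes that Feature Extraction found well above background on both arrays of 1 or both groups were compared by limma 3.58.1 (lmFit, eBayes; R 4.3.3; two-sided, Benjamini-Hochberg over all probes, threshold 0.05). No spot was saturated. The number of arrays limits the precision.

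Accessions were named through a RefSeq gene table of GRCm38.p6, used for names alone because the array design names another build: 26576 probes received 1 symbol and 29105 none. Of several probes of a gene, the brightest was taken. The text names all members, and of each list the 4 genes with the largest absolute log2 fold change among those well above background on all 4 arrays with groups that did not overlap. Other list genes were named after their values had been seen. The members and lists were chosen with earlier results of these data known. Alternatives were normexp (offset 50), quantile and median scaling, 2 other filters, a variance trend, the deposited log2 table, a replicate block, the methods' t-test, the mean of a gene's probes and each mouse left out. The limma step was tested on simulated data.

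The vehicle arrays correlated with r = 0.97 and the AP arrays with r = 0.98. All arrays shared 1 slide and 1 scan. The place code of each array on that slide holds 2 numbers. The first was 1 for both AP mice and vehicle mouse 1, and 2 for vehicle mouse 2. The second was 3 and 4 for the AP mice and 1 for the vehicle mice, so place on the slide and treatment cannot be told apart. Mice with the same number did not deviate together (correlation -0.13), and the labels do not say that the numbers pair them.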

Additional observations from a re-analysis of the deposited data

How the results depend on the processing

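No probe passed the adjusted threshold under any alternative fitted over all probes, nor did a member when the mean of a gene's probes was taken. Nfe2l2, Hmox1, G6pdx and Gstm1 kept their direction under normexp, quantile and median scaling, the authors' table and each mouse left out. They also kept it with the mean of a gene's probes, where Hmox1 was 0.59 and Gstm1 -0.31. The remaining settings leave the fold change of a probe as it is. With scaling to the median of each array, which moved the median of all probes to 0.08, Txn1 was 0.051. With normexp, Nfe2l2 was 0.22 and Nqo1 -0.37. With the authors' log2 table, whose median over all probes was -0.17, Srxn1 was -0.0060 and Txnrd1 -0.13, the general antioxidant enzymes had a median of -0.30, and the genes above 0 were 2 of 10 members and 3 of 19 general enzymes. Without a filter, which adds dim probes to the test, 2610 of 55666 probes in place of 1515 of 24970 were at an unadjusted p under 0.05. With 1 mouse left out, with the remaining mouse of its group taken to vary as the others do, these were 1003 to 2177. The log2 fold changes then ranged from 0.08 to 0.78 for Nfe2l2, -0.41 to 0.00099 for Keap1, -2.02 to 0.16 for Nqo1, 0.11 to 1.22 for Hmox1, -0.48 to 0.79 for Srxn1, -0.61 to 0.68 for Txnrd1, -0.25 to 0.17 for Txn1, -1.08 to -0.26 for G6pdx, -0.52 to 0.32 for Gsta4 and -0.49 to -0.27 for Gstm1. Medians ranged from -0.39 to 0.14 for the members, -0.30 to 0.0019 for the other targets, -0.066 to 0.45 for the partners and -0.22 to -0.01 for the general enzymes, and genes above 0 from 3 to 6, 8 to 17, 5 to 9 and 5 to 9. With the replicate number as a block, 0 probes passed the adjusted threshold and 1227 an unadjusted p under 0.05, and no adjusted call changed (in this balanced design the block cannot move a fold change, so the members' median is -0.07 by construction), while Sqstm1 and Tkt moved to an unadjusted p of 0.055 and 0.074. Pairing the numbers crosswise, chosen after seeing the data, gave 0 and 1567 probes, the latter with 1 of the 10 members, G6pdx. Slide and scan could not be run as a block because there was 1 of each. Apart from the settings' own construction, the cause of these differences was not tested. Nqo1 was near the lower end of the signal on 3 arrays.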

Other observations

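Some genes of the NRF2 lists were at least 2-fold higher in AP mouse 2 than in AP mouse 1, as Hmox1, Srxn1 and Txnrd1 were. They were picked by this difference after their values had been seen, so it is given as a description. Among the other targets they were the carbonyl reductase Cbr3 (4.95-fold), Pgd (3.76-fold), the biliverdin reductase Blvra (3.42-fold), the transferase Gsta3 (2.98-fold) and Abcc4 (2.51-fold), 5 of 33 genes or 15.2% beside 5.35% of all probes. Cbr3 read 3.52 and 2.81 in the vehicle mice and 2.77 and 5.08 in the AP mice, so that AP mouse 1 was the lowest mouse and AP mouse 2 the highest. Among the partners they were the small MAF gene Maff (2.79-fold) and Gsk3b (2.02-fold), which encodes a kinase that marks NRF2 for degradation. Maff also lay far apart between the vehicle mice, at 3.22 and -0.38.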
